A study of Mus musculus with 9 samples.

Results

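The genes described here encode the phagocyte NADPH oxidase (NOX2), the enzyme that makes superoxide in the respiratory burst. The members were 5 listed genes, Cybb, Cyba, Ncf1, Ncf4 and Rac2, found by symbol among the 53801 Ensembl genes of the count data, and each matched 1 identifier. RNA-seq counts were available for 9 libraries of monocytes/macrophages sorted by FACS as CD11c-Ly6G-CD11b+CD45high cells from male C57BL/6J mice 9 weeks of age. The 3 sham blood libraries came from sham-operated mice and the 3 stroke blood libraries from mice 5 days after distal middle cerebral artery occlusion (dMCAO), a permanent focal ischemia, with 1 mouse per library. The 3 stroke brain libraries came from the ipsilesional hemisphere 5 days after dMCAO, each from a pool of 5 mice, so their spread is between pools and that of the blood libraries between mice. Brain tissue was dissociated with a kit in a heated gentleMACS device and its cells were separated on Percoll, whereas blood was separated on Ficoll. Tissue and cell preparation therefore cannot be told apart in the comparisons of brain with blood. The day on which sham blood was drawn was not given in the sources used here, and the labels name no transgene or drug.

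NOX2 has a membrane core, flavocytochrome b558, formed by gp91phox (Cybb), which carries electrons from NADPH to oxygen, and p22phox (Cyba), its stabilizing partner. The cytosolic subunits, among them p47phox (Ncf1) and p40phox (Ncf4), join this core on activation together with a GTP-bound Rac GTPase, of which Rac2 is the form restricted to blood cells. Superoxide and the peroxide made from it serve killing of microbes and redox signaling, and in the ischemic brain NOX2 of microglia and infiltrating myeloid cells is a known source of oxidants.

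Total counts ranged from 18475118 to 22623578 per library, and levels are given as counts per 1000000 counts of the library (CPM). At these depths 3 counts equal 0.133 to 0.162 CPM, and every member had far more, so counting error was small beside the spread between libraries. The 10 monocyte and macrophage markers were present in all groups, at a summed level of 89705 to 125644 CPM in sham blood, 98558 to 109580 CPM in stroke blood and 47431 to 52984 CPM in the brain, most of it Lyz2. None of the 10 was at 0 in any group. Ly6g, the neutrophil marker gated against, stayed at or below 0.756 CPM. The 10 neutrophil markers together were at 674 to 1761 CPM in sham blood, 409 to 759 CPM in stroke blood and 813 to 1177 CPM in the brain. The 6 dendritic cell markers summed to 112 to 347 CPM, 99.7 to 231 CPM and 747 to 1018 CPM in these groups. The 9 microglia markers summed to 135 to 205 CPM in the blood libraries and to 1526, 2224 and 4249 CPM in the brain. Erythroid RNA (5 markers) was 10743 to 27660 CPM in 5 of the 6 blood libraries, 925 CPM in sham blood 1 and 3.57 to 12.4 CPM in the brain. In such bulk samples, fewer cells of a type and less RNA per cell cannot be told apart.

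On the GRCm38 build, with GENCODE M21 annotation, Cybb (ENSMUSG00000015340) spans chrX:9435252-9487771 and Cyba (ENSMUSG00000006519) chr8:122424776-122432930, both on the minus strand. Ncf1 (ENSMUSG00000015950) lies at chr5:134220053-134229625 on the minus strand. Ncf4 (ENSMUSG00000071715) lies at chr15:78244801-78262580 on the plus strand and Rac2 (ENSMUSG00000033220) on the same chromosome at chr15:78559167-78572783 on the minus strand. Exons of Ncf1 share 408 bases with Gtf2ird2 on the opposite strand. The strand setting of the counting was not given in the sources used here, but Gtf2ird2 had a mean of only 3.48 to 7.47 CPM in the 3 groups against 250.1 to 313.4 CPM for Ncf1. The other 4 members shared no exon bases with another gene.

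The sequences before the start site are shown for Cybb, Cyba and Ncf1, the members with a RefSeq promoter entry, to set the membrane pair beside a cytosolic subunit. They are the 250 bases before the RefSeq transcript start (assembly GRCm38.p6), 5′ to 3′ on the gene's own strand. Entries matched 3 of the 5 members, and Ncf4 and Rac2 had none. Matches on either strand are in capitals. The motifs searched were GAGGAA, a form of the PU.1 site, the CCAAT box, the GC box GGGCGG and the TATA box TATAAA. Other forms of the PU.1 site were not searched. The positions are chrX:9469325-9469574 for Cybb, where the RefSeq start lies inside the longer GENCODE gene, chr8:122432941-122433190 for Cyba and chr5:134229626-134229875 for Ncf1, all on the minus strand.
Cybb: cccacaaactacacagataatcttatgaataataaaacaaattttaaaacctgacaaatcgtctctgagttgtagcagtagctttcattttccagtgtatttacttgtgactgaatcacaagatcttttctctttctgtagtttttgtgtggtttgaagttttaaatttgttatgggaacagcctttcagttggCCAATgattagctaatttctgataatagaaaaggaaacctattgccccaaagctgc
Cyba: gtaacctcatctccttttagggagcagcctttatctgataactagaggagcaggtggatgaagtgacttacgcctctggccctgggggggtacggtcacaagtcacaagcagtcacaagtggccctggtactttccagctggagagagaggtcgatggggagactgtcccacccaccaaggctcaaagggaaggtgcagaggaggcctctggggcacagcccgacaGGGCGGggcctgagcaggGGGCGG
Ncf1: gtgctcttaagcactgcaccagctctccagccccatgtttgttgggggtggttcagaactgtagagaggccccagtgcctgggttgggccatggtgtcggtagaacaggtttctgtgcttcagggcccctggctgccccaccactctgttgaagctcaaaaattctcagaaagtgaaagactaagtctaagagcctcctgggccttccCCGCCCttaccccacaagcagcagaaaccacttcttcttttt
The Cybb window held 1 CCAAT match, which began 56 bases before the start, and its GC content was 34%, against a median of 52.4% over 32851 promoters. The Cyba window (GC 60%) held GGGCGG matches that began 24 and 6 bases before the start, and the Ncf1 window (GC 54.4%) held 1 GGGCGG match on the other strand, 42 bases before the start. CCAAT occurred in 33.8% of all promoters of this length and GGGCGG in 32.7%. Neither GAGGAA (23.3% of promoters) nor TATAAA (12.4%) was found in the 3 windows. The motifs overlapped each other in none of the 3 windows, and a match describes the letters only.

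The first comparison asked how the cells sorted from the poststroke brain differed from blood monocytes of the same time point. Cybb, the catalytic subunit, was 2.48-fold lower in the brain, while the other 4 members did not pass the test. Of these, Cyba, Ncf4 and Rac2 also had negative log2 fold changes (-0.40, -0.19 and -0.41), and Ncf1 had a positive one (0.17). Cybb was at 3289, 3681 and 3489 CPM in stroke blood libraries 1 to 3 and at 1758, 1413 and 1526 CPM in brain libraries 1 to 3. Every brain library was thus below every stroke blood library, and the means were 1566 ± 176 and 3486 ± 196 CPM (SD, n = 3 each). After TMM normalization the difference was -1.31 ± 0.15 (log2 fold change ± SE), a 2.48-fold lower level (edgeR quasi-likelihood test, Benjamini-Hochberg adjusted p = 0.00035). On CPM alone the brain mean was lower by 55.1%. Cybb was the 22nd most abundant gene by mean CPM in stroke blood and the 65th in the brain. Of the 13189 genes tested, 8.07% had a lower log2 fold change.

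Cyba, which encodes the partner of gp91phox in the membrane, was at 1639, 1497 and 1609 CPM in stroke blood and at 1028, 1559 and 1426 CPM in the brain. Brain library 1 was low and the other two lay within or just below the stroke blood range, so the groups overlapped. The difference was -0.40 ± 0.18 on the log2 scale (edgeR adjusted p = 0.131). After TMM scaling the brain values (939 to 1463 CPM) lay below the stroke blood values (1529 to 1784 CPM), so whether Cyba overlapped depended on the scaling.

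Among the cytosolic subunits, Ncf1, the organizer whose phosphorylation starts assembly, was at 228.1, 281.3 and 241.0 CPM in stroke blood and at 283.1, 343.7 and 313.5 CPM in the brain. Its brain libraries were all above its stroke blood libraries on CPM, the lowest brain value by a small margin, and the groups overlapped after TMM scaling. It differed by 0.17 ± 0.15 on the log2 scale (edgeR adjusted p = 0.425). Ncf4, whose product binds phosphatidylinositol 3-phosphate on phagosomes, was at 395.1, 337.4 and 384.0 CPM in stroke blood and at 321.9, 406.2 and 363.5 CPM in the brain. These ranges overlapped, and the difference was -0.19 ± 0.15 (log2, edgeR adjusted p = 0.39).

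Rac2, the GTPase that switches the assembled oxidase on, was at 1116, 1104 and 1309 CPM in stroke blood and at 972, 1044 and 937 CPM in the brain. All brain libraries were below all stroke blood libraries, but the difference of -0.41 ± 0.15 on the log2 scale missed the threshold (edgeR adjusted p = 0.0632). The call rested on the set of libraries: it passed when all 9 libraries shared a fit (-0.45, edgeR adjusted p = 0.0317) and without stroke blood 2 (-0.52, edgeR adjusted p = 0.0392).

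**Figure D1:**
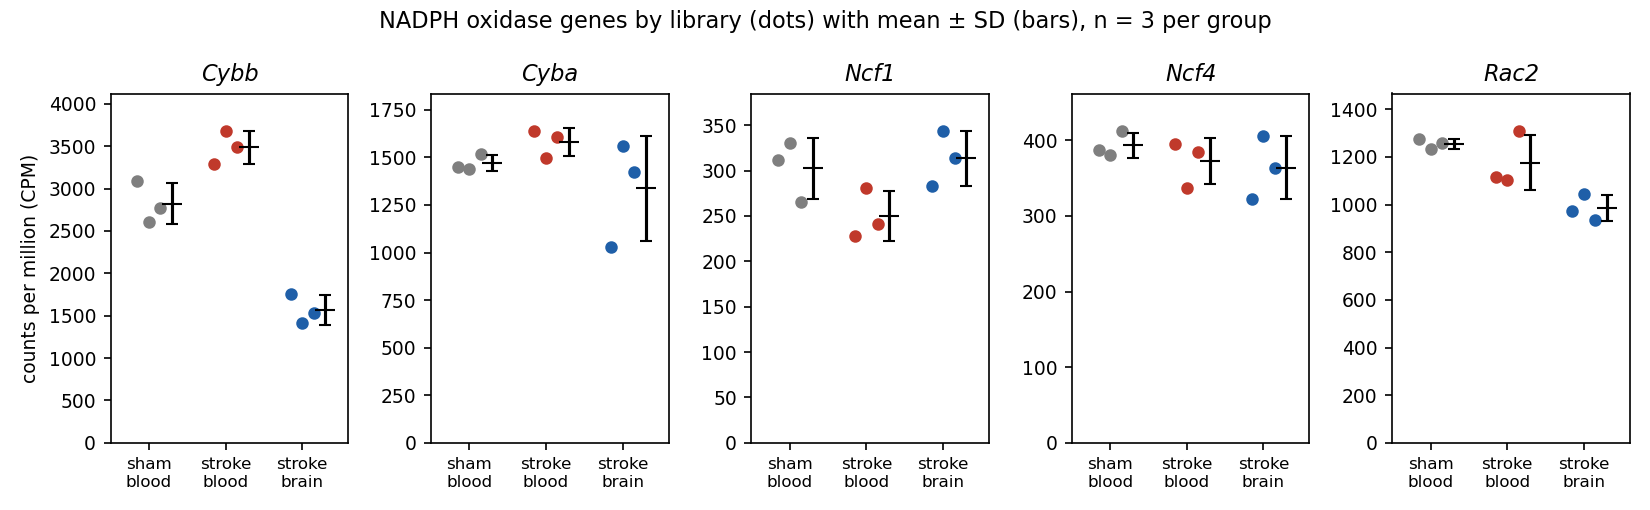
Level of each NADPH oxidase gene in CPM (vertical axes, each starting at 0) in sham blood, stroke blood and stroke brain, with a dot per library and the mean ± SD beside it (n = 3). Cybb separates the groups, with 1413 to 1758 CPM in the brain and 3289 to 3681 CPM in stroke blood, whereas the Ncf4 ranges overlap in all 3 groups.

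In the brain versus stroke blood comparison, 1 of the 5 members was lower at an adjusted p below 0.05 and none was higher, where 13.1% of all genes tested were lower and 17.5% higher. The same gene, Cybb, was the only member that was a differentially expressed gene (DEG, absolute log2 fold change above 1 and adjusted p below 0.05), and 7.86% of all genes were lower DEGs. On CPM the groups did not overlap for 3 of the 5 members (Cybb and Rac2 lower, Ncf1 higher), against 49.2% of all genes. The median log2 fold change of the members was -0.40, beside 0.06 for all genes tested. Scaling by library size alone moved the median of all genes to 0.22 (to 0.13, from 0.01, for brain versus sham blood), and Cybb was then at -1.15 (edgeR adjusted p = 0.000667). Markers of other cells also moved with the brain samples. The summed monocyte and macrophage markers were lower there, with 4 of 10 lower and 2 higher in edgeR, and all 9 microglia markers were higher. Of 7 neutrophil markers tested, 5 were higher (Camp, Ltf, Ngp, Elane and Mpo) and 1, Mmp8, was lower. Mpo was at 0.289 to 1.46 CPM in stroke blood and at 158, 45.0 and 18.9 CPM in the brain. Of the 6 dendritic cell markers 5 were higher, including Itgax, the gene of the CD11c protein gated against, which was at 11.01 to 19.4 CPM in stroke blood and 78.9 to 141 CPM in the brain. The 8 T, B and NK cell markers summed to 139 to 416 CPM in stroke blood and 353 to 639 CPM in the brain. In edgeR 1 of them was higher and none was lower. The part of these cells in the Cybb difference was not tested.

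The second comparison asked whether stroke itself changed these genes in circulating cells. In edgeR no member passed this test, in which 0.0079% of the 12664 genes tested were called (1 gene, Serpinb10). None of the 5 members had an unadjusted p below 0.05 in edgeR, beside 1581 of all 12664 genes tested. None was called by DESeq2, which called 191 genes in all. Cybb was at 3092, 2609.5 and 2770.1 CPM in sham blood, below each stroke blood library, and its mean was 23.5% higher in stroke blood (log2 fold change 0.34 ± 0.16, edgeR adjusted p = 0.428). Such a separation on CPM was found for 1 of the 5 members and for 18.7% of all genes tested.

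The other members overlapped between the blood groups. Cyba was at 1449.9, 1440.3 and 1516 CPM in sham blood and differed by 0.15 ± 0.15 on the log2 scale in stroke blood (edgeR adjusted p = 0.687). Ncf1 was at 311.5, 330.4 and 265.1 CPM in sham blood, of which the first 2 were above all stroke blood libraries, and it differed by -0.24 ± 0.16 (log2, edgeR adjusted p = 0.549). For Ncf4 the sham blood levels were 387.0, 380.6 and 412.4 CPM, and for Rac2 they were 1275, 1234 and 1259 CPM. Their log2 fold changes in stroke blood were -0.04 ± 0.15 and -0.05 ± 0.16 (edgeR adjusted p = 0.922 and 0.902), and the sign for Ncf4 turned without stroke blood 2 (0.01).

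The third comparison set brain cells against sham blood, and it shares its brain libraries with the first comparison and its sham libraries with the second. Cybb and Rac2 were lower in the brain, 2 of the 5 members at an adjusted p below 0.05 (7.68% of the 13020 genes tested were lower and 12.1% higher). Cybb was 1.97-fold lower than in sham blood (log2 fold change -0.98 ± 0.15, edgeR adjusted p = 0.00495), just short of the DEG threshold of a 2-fold change, which 3.67% of genes passed as lower. Without sham blood 2 or without brain 1 it passed that threshold (-1.05 and -1.06). Rac2 was 1.39-fold lower (-0.47 ± 0.12, edgeR adjusted p = 0.0324). The Rac2 call was lost when any 1 of the 6 libraries was left out (edgeR adjusted p from 0.0533 to 0.12) and when only library size was used for scaling (-0.35, edgeR adjusted p = 0.069). With DESeq2 it held (-0.48, DESeq2 adjusted p = 0.016). Cyba (-0.25 ± 0.18, edgeR adjusted p = 0.357), Ncf4 (-0.23 ± 0.14, 0.282) and Ncf1 (-0.07 ± 0.14, 0.776) did not pass, and the sign of Ncf1 turned under library size scaling (0.05) and without brain 1 (0.01). The brain and sham blood libraries did not overlap for Cybb and Rac2, 2 of the 5 members, against 41.7% of all genes.

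**Figure D2:**
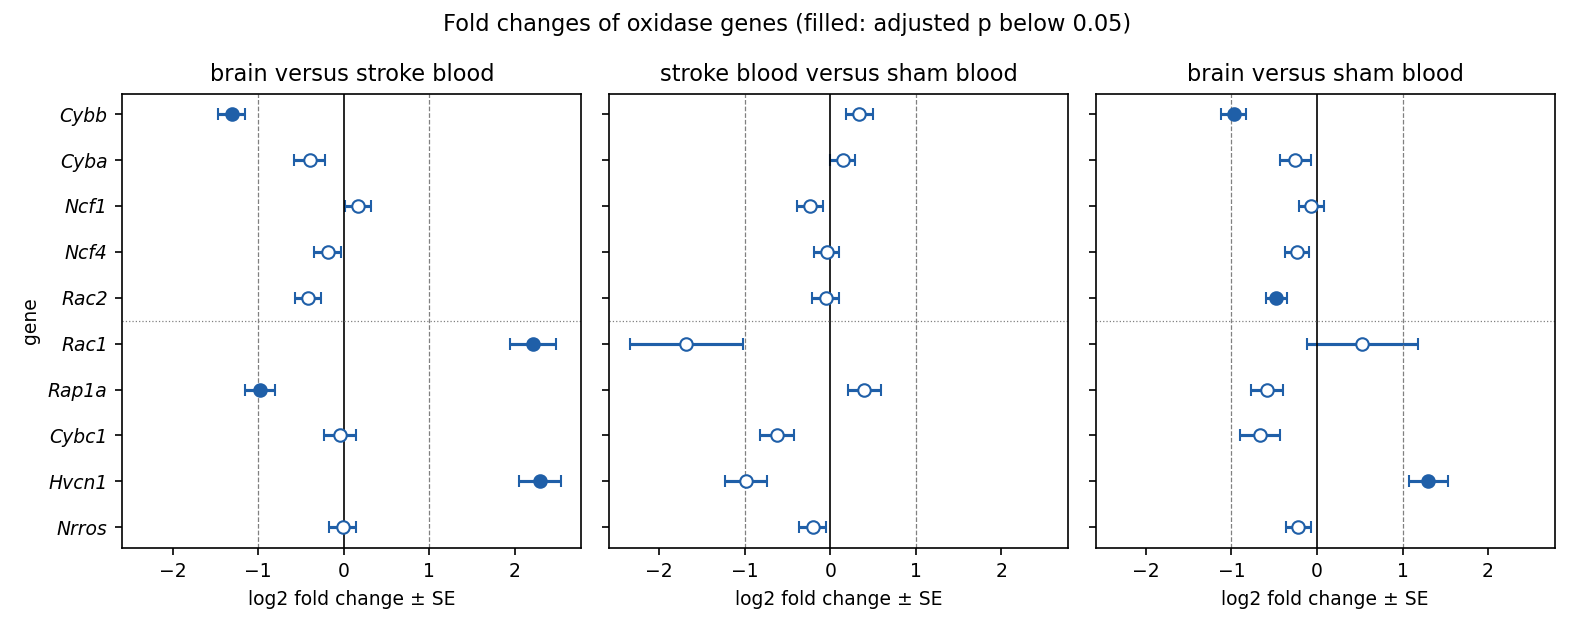
Log2 fold change ± SE (horizontal axes) of the 5 members and of 5 other genes of NOX2 assembly, below the dotted line, in the 3 comparisons, with filled symbols at an edgeR adjusted p below 0.05 and dashed lines at a 2-fold change. Cybb lies at -1.31 and -0.98 in the comparisons with the brain, and no gene is filled between the blood groups.

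The balance within the complex was examined by count ratios inside each library, which no scaling between libraries can change. The Cyba to Cybb ratio was 0.469, 0.552 and 0.547 in sham blood, 0.498, 0.407 and 0.461 in stroke blood and 0.585, 1.10 and 0.934 in the brain. All brain ratios were above all blood ratios, by 0.90 on the log2 scale against stroke blood and by 0.70 against sham blood. Both gave p = 0.1 in the two-sided exact permutation test, the smallest that 3 libraries against 3 allow, and 0.225 after adjustment over the 9 ratio tests.

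The Ncf4 to Ncf1 ratio was 1.24, 1.15 and 1.56 in sham blood and 1.73, 1.20 and 1.59 in stroke blood, and only 1.14, 1.18 and 1.16 in the brain. The brain ratios were below those of stroke blood without overlap (log2 difference -0.36, exact permutation p = 0.1, adjusted 0.225), by a margin at stroke blood 2 that was small. They overlapped those of sham blood (-0.17, exact permutation p = 0.3, adjusted 0.386). The 3 brain pools differed least in this ratio, with an SD of 0.028 on the log2 scale against 0.278 in stroke blood and 0.226 in sham blood.

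Rac2 is the main Rac of leukocytes and Rac1 the ubiquitous paralog, which can also serve NOX2 in monocytes/macrophages. The Rac2 to Rac1 ratio was 9.16, 14.5 and 7.76 in stroke blood and 1.54, 1.66 and 1.44 in the brain, a log2 difference of -2.71 (exact permutation p = 0.1, adjusted 0.225). Sham blood spread over 18.04, 1.62 and 3.18 and overlapped both groups. This spread came with Rac1, which was at 70.7, 759.8 and 396.1 CPM in the sham blood libraries, whereas Rac2 lay between 1234 and 1275 CPM in them. Sham blood 1, with the lowest Rac1, also had the least erythroid (925 CPM) and platelet RNA (14.8 CPM, against 373 and 557 CPM in the other sham libraries). In the stroke blood libraries erythroid RNA was at 10743 to 14163 CPM. The part of these cells in the Rac1 spread was not tested.

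**Figure D3:**
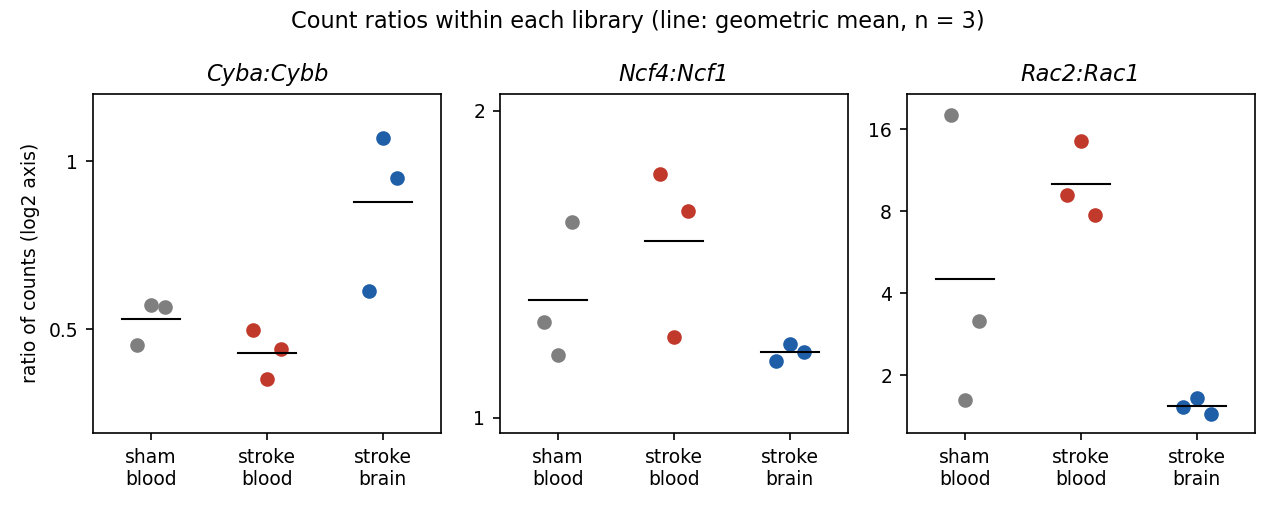
Ratios of counts within each library on log2 axes, with a dot per library and a line at the geometric mean of the 3 libraries of a group. The brain ratios of Cyba to Cybb (0.585 to 1.10) lie above all blood ratios, and those of Rac2 to Rac1 (1.44 to 1.66) lie below those of stroke blood (7.76 to 14.5).

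To compare levels between genes, counts were divided by the exon length of each gene and scaled to transcripts per 1000000 (TPM). On this scale Cyba was the highest member in each group, with 3215 ± 72.2 TPM in sham blood, 3188 ± 111 in stroke blood and 3424 ± 677 in the brain (SD, n = 3). Cybb had 1106 ± 99.6, 1263 ± 158 and 719 ± 88.4 TPM, and Rac2 had 921 ± 16.8, 793 ± 53.6 and 845 ± 49.0 TPM. Cybb was thus above Rac2 in every blood library and below it in every brain library (817, 646 and 692 TPM for Cybb against 846, 893 and 795 TPM for Rac2). Ncf4, with 443 ± 16.5, 385 ± 11.8 and 479 ± 52.1 TPM, came next, and Ncf1 was the lowest member with 188 ± 21.8, 144 ± 26.9 and 228 ± 20.4 TPM. The order of the Cybb and Rac2 means turned with the length used in sham blood, and in the brain it did not. With coding length alone Cybb was at 0.757 of Rac2 in sham blood, 1.00 in stroke blood and 0.537 in the brain, beside 1.20, 1.59 and 0.85 with exon length.

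**Figure D4:**
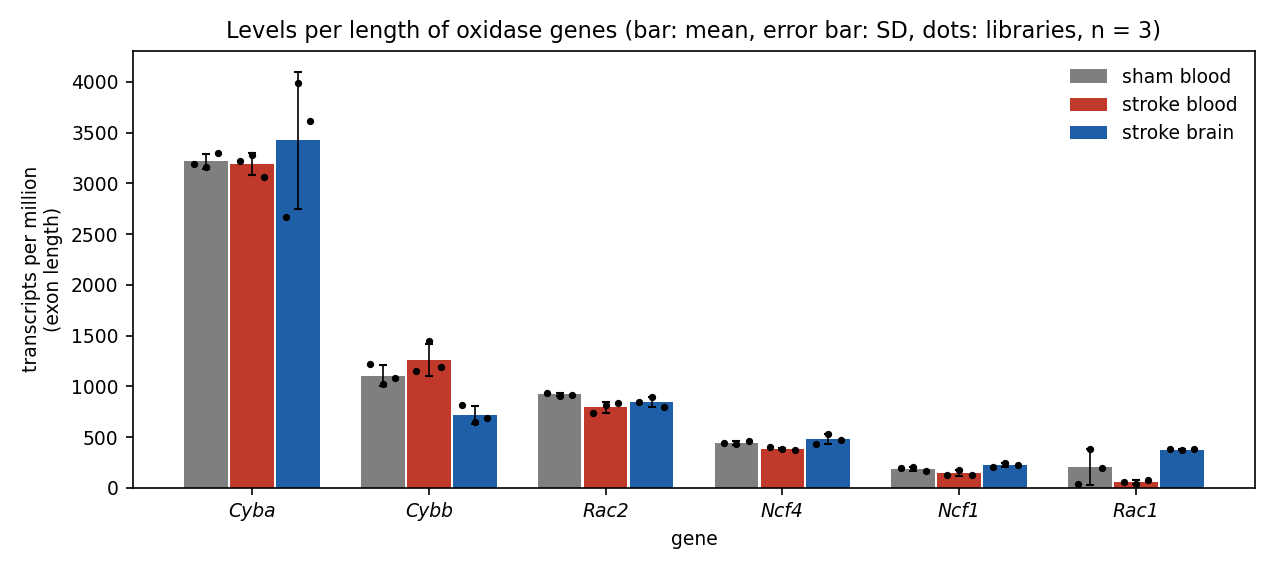
Level per exon length (TPM, bars from 0: mean, error bars: SD, dots: libraries, n = 3) of the 5 members and Rac1 in the 3 groups. Cyba exceeds every other gene shown, and Cybb drops from 1263 TPM in stroke blood to 719 TPM in the brain.

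The other listed parts of NOX2 and of its assembly reported here were 5 genes, of which 2 rose and 1 fell in the brain relative to stroke blood. Among all genes tested, 17.5% rose and 13.1% fell. Rap1a, a small GTPase found with flavocytochrome b558, was 1.97-fold lower (-0.98 ± 0.17, edgeR adjusted p = 0.00305). Rac1 rose from 121.9, 76.4 and 168.6 CPM to 632, 629 and 649 CPM (2.22 ± 0.27, edgeR adjusted p = 0.00043). Its exons share 2309 bases with Daglb on the opposite strand, which had a mean of 109 CPM in stroke blood and 163 CPM in the brain, so part of the Rac1 count is uncertain. Hvcn1, the proton channel that balances the charge moved by the oxidase, rose 4.89-fold (2.29 ± 0.25, edgeR adjusted p = 0.000241) from 4.47 ± 0.19 to 24.3 ± 4.23 CPM. Its exons overlap Tctn1 on the opposite strand (3.06 and 3.81 CPM). Cybc1 and Nrros, which encode a chaperone of flavocytochrome b558 and a regulator of gp91phox stability, had log2 fold changes of -0.04 and -0.01 (edgeR adjusted p = 0.888 and 0.971).

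None of the 9 genes for other oxidases and their organizers (Nox1, Nox3, Nox4, Duox1, Duox2 and their partners) reached the level needed for the edgeR test. The most counts among them were those of Duoxa1 in the brain (20, 8 and 9 counts) and of Noxo1 in brain library 1 (13 counts). Duoxa1, which had no count in any blood library, was called by DESeq2 in both comparisons with the brain.

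Of the 15 kinase and lipid signaling genes that act on p47phox or its partners, 4 rose in the brain relative to stroke blood and none fell. By comparison, 17.5% of all genes tested rose and 13.1% fell. Prkcb, a protein kinase C that phosphorylates p47phox, rose 2.43-fold (log2 fold change 1.28 ± 0.30, edgeR adjusted p = 0.0116), and Pak1, a Rac-activated kinase, 1.80-fold (0.85 ± 0.22, edgeR adjusted p = 0.0189). Pik3r5, a regulatory subunit of PI3K gamma, rose 1.56-fold (0.64 ± 0.18, edgeR adjusted p = 0.0254). Akt1 passed as well (1.99 ± 0.54, edgeR adjusted p = 0.0211), but its brain values were 78.1, 475 and 403 CPM and brain library 1 lay within the stroke blood range of 54.0 to 86.1 CPM. The kinase Prkcd, at -0.18 ± 0.16 (edgeR adjusted p = 0.428), was among the 11 that did not pass. Relative to sham blood only 1 of the 15 was higher in edgeR and 1 was lower, beside 12.1% and 7.68% of all genes tested. DESeq2 called neither Prkcb nor Pik3r5 in that comparison. Prkcb spread over 35.4, 184.2 and 114.6 CPM in sham blood, beside 150.2 to 180.4 CPM in the brain.

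Genes that load Rac with GTP or keep it inactive were listed together with the GTPases Rac3 and Rhog. These 12 genes moved in both directions, with 5 higher and 3 lower, beside 17.5% and 13.1% of all genes tested. The exchange factors Vav2 (3.99-fold, edgeR adjusted p = 0.000257), Vav3 (2.35-fold, 0.00249) and Vav1 (1.80-fold, 0.00431) rose. Vav2 was at 31.8, 32.5 and 32.5 CPM in the brain and 5.94 to 8.11 CPM in stroke blood. Rac3, a paralog at 3.19 ± 0.84 CPM in the brain, and Arhgap25, a Rac GTPase-activating protein of phagocytes, were also higher. The exchange factor Tiam1 fell 2.30-fold (edgeR adjusted p = 0.00385). Arhgap15, a Rac GTPase-activating protein, fell 1.71-fold (edgeR adjusted p = 0.00845), and Arhgdib, which holds Rac-type GTPases in the cytosol, fell 1.52-fold (edgeR adjusted p = 0.018). Relative to sham blood, 2 of the 12 were higher in the brain and 4 lower in edgeR, beside 12.1% and 7.68% of all genes tested. DESeq2 called Vav2 in that comparison, but neither Vav1 nor Vav3.

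Of 10 tested genes that remove superoxide and peroxide, 5 fell and 1 rose, beside 13.1% and 17.5% of all genes tested. The list median was -0.58 beside 0.06 for all genes. Gpx1, a glutathione peroxidase, fell 2.83-fold from 6997, 5884 and 7622 CPM in stroke blood to 2281, 2966 and 2818 CPM in the brain (log2 fold change -1.50 ± 0.18, edgeR adjusted p = 0.000442). Prdx2 (2.08-fold), Prdx5 (1.78-fold), Txn1 (1.66-fold) and Gpx4 (1.65-fold), which encode peroxiredoxins, thioredoxin and a glutathione peroxidase of lipid peroxides, fell as well. Prdx2 and Prdx5 overlap neighboring genes on the opposite strand and are uncertain. Erythroid RNA was at 10743 to 14163 CPM in stroke blood and at 3.57 to 12.4 CPM in the brain. In sham blood libraries 1 to 3 it was at 925, 27660 and 24725 CPM. Gpx1 was at 4415, 5105 and 5477 CPM in these sham libraries, and Prdx2 at 260, 358 and 386 CPM. The part of erythroid cells in these falls was not tested. Txnrd1, thioredoxin reductase, rose 2.89-fold (edgeR adjusted p = 0.00158). The superoxide dismutases Sod1 (0.36, edgeR adjusted p = 0.352) and Sod2 (0.19, 0.336) did not pass.

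Transcription factors known at phagocyte oxidase promoters gave 1 rise and 1 fall among 8, beside 17.5% and 13.1% of all genes tested. Cebpb rose from 36.0, 20.0 and 49.1 CPM in stroke blood to 957, 1556 and 1455 CPM in the brain (33.8-fold, edgeR adjusted p = 3.22e-05), and Cebpa fell 1.92-fold (edgeR adjusted p = 0.0371). The exons of Cebpb share 312 bases with Tmem189 on the opposite strand. Spi1, which encodes PU.1 and is known to drive Cybb, Ncf1 and Ncf4, was at 814 ± 101 CPM in stroke blood and 824 ± 75.3 CPM in the brain (log2 fold change -0.14 ± 0.16, edgeR adjusted p = 0.551). Irf8 (0.08 ± 0.18, 0.751) and Irf1 (0.32 ± 0.16, 0.158), which act with PU.1 at Cybb, did not pass either.

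Among 10 receptors that trigger the burst, the complement receptor C5ar1 rose 6.75-fold to 431, 586 and 564 CPM (edgeR adjusted p = 3.48e-05) and the Fc receptor Fcgr4 1.94-fold (edgeR adjusted p = 0.0273). The formyl peptide receptor Fpr2 fell 3.78-fold (edgeR adjusted p = 0.00029), and Itgam, the gene of the CD11b protein used in the sort, fell 1.50-fold (edgeR adjusted p = 0.0119). Fpr2 and Itgam share exon bases with another gene on the same strand (Fpr3 and Gm49368) and are uncertain. None of the 7 genes for LC3-associated phagocytosis, which depends on NOX2 at the phagosome, passed in edgeR or DESeq2. Their log2 fold changes ranged from -0.32 (Pik3c3) to 0.50 (Atg16l1). An unadjusted edgeR p below 0.05 was found for 2 of the 7 and for 5563 of all 13189 genes tested.

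**Figure D5:**
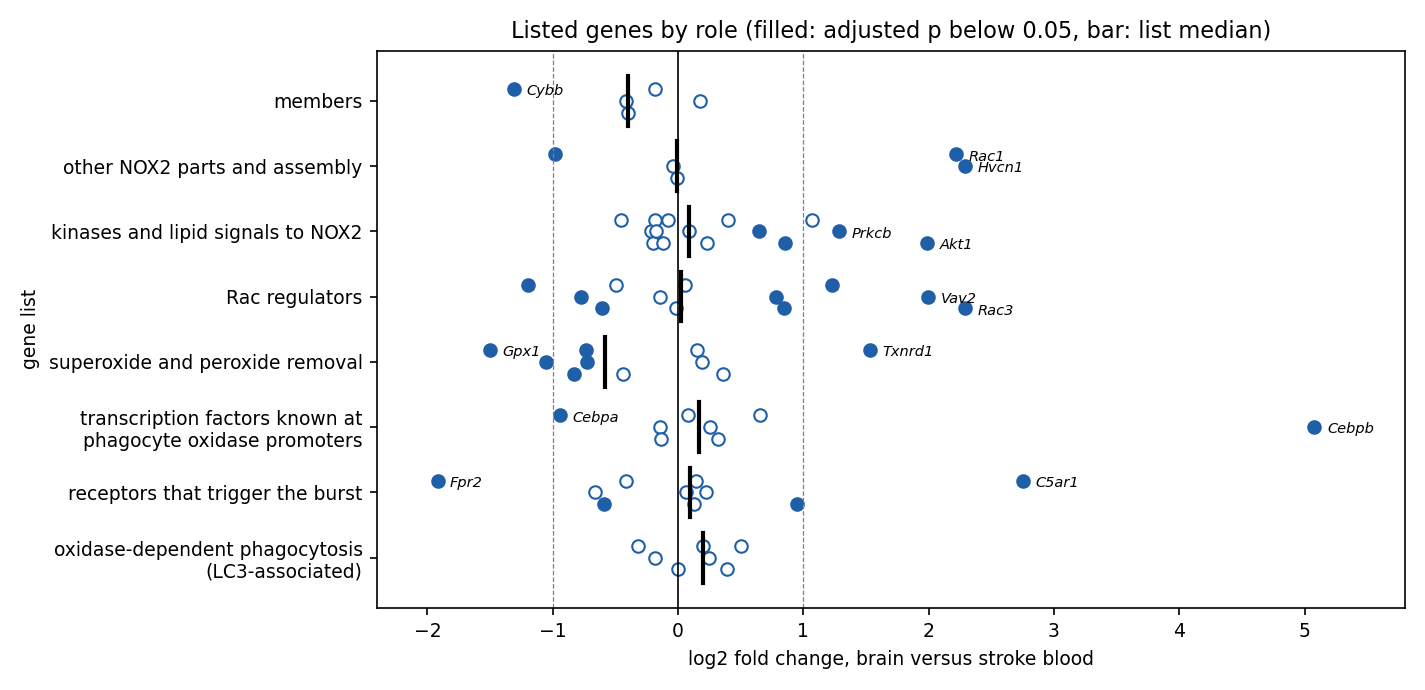
Log2 fold change between brain and stroke blood (horizontal axis) of the tested genes in 8 lists, 1 dot per gene, filled at an edgeR adjusted p below 0.05, with a bar at each list's median and dashed lines at a 2-fold change. Cybb has the lowest value among the members at -1.31, and Cebpb the highest of all at 5.08.

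Over all lists without the members, 15 of 67 tested genes rose and 12 fell in the brain relative to stroke blood, beside 17.5% and 13.1% of all genes tested. Relative to sham blood 10 rose and 11 fell, beside 12.1% and 7.68% of all genes. Between stroke blood and sham blood none of the 67 passed in edgeR and DESeq2 called none. Of the 67, 14 had an unadjusted edgeR p below 0.05, beside 1581 of all 12664 genes tested. Relative to sham blood, Hvcn1 (1.30 ± 0.23, edgeR adjusted p = 0.0081) was higher, whereas Rac1 did not pass (0.53 ± 0.65, edgeR adjusted p = 0.6). Gpx1 (-1.01, edgeR adjusted p = 0.00651), C5ar1 (2.08, 0.00414) and Cebpb (5.52, 0.00022) passed as well. Rap1a did not pass against sham blood in edgeR, whereas DESeq2 called it. Its means were 246 CPM in sham blood, 317 CPM in stroke blood and 179 CPM in the brain.

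Likeness of pattern was described by Pearson's r of log2 CPM over the 9 libraries, among 7690 genes with a mean of at least 10 CPM. The libraries of a group share tissue and surgery, so these values describe the 3 groups as much as single libraries and carry no p. The genes most like Cybb were Clec4a3, Cd300lg and Hacd4 (r = 0.98 each). Clec4a3, a C-type lectin receptor, was at 1190 ± 59.9 CPM in stroke blood and 540.4 ± 44.0 CPM in the brain. Those most like Rac2 were Bscl2, Prelid1 and Ms4a8a (r = 0.97 each), and those most like Ncf1 were Rnf145 (0.97), Uspl1 (0.95) and Mak16 (0.93). For Cyba they were Jagn1, Brk1 and Nit2 (r from 0.967 to 0.974) and for Ncf4 Mrps25, Itgb1bp1 and Coa3 (0.959 to 0.979). Between members, r was highest for Cyba and Ncf4 (0.89), which were both low in brain library 1, and was 0.85 for Cybb and Rac2. Ncf1 stood apart, with r between -0.31 and -0.04 to each of the other members.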

How the data were processed

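Total RNA of the sorted cells was converted to cDNA with a SMART-Seq kit and made into Nextera XT libraries by the authors, who used HISAT2 for alignment to GRCm38 and HTSeq for counting. What they deposited was the raw read counts per gene, not normalized. The tool versions, annotation release and strand setting were not given in the sources used here. Samples were grouped by the titles in their labels. Symbols, exon overlaps and lengths came from GENCODE M21, which places 52019 of the 53801 genes at the same coordinates. Chi-square values between replicates, divided by their degrees of freedom, were 23.9 to 135.9, so each library was counted singly.

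Each pair of groups was fitted across all genes with edgeR 4.0.16 in R 4.3.3 (filterByExpr, TMM normalization, quasi-likelihood test, Benjamini-Hochberg adjustment). TMM factors were 0.978 to 1.01 in sham blood, 0.902 to 0.979 in stroke blood and 1.06 to 1.09 in the brain. The SE is the log2 fold change over the square root of F. The filter kept all 5 members in each comparison. The counts of DEGs used the thresholds of the study's methods. Named genes were every member, the genes of the lists whose part in the oxidase is described, at most 4 largest changes per list and direction, and the 3 genes most like each member (prior count 2). Genes whose results are not given here were left out of the list counts. The members and lists were chosen with earlier results of these data known. Same-numbered libraries did not deviate together (correlations of -0.07 to 0.066), and they were not treated as pairs. With pools of 5 mice in the brain libraries, such correlations cannot exclude shared animals.

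The fit was tested on simulated data, in which it missed most of the smaller changes. Alternatives were DESeq2 1.42.0, RLE or library size scaling, no filter, all 9 libraries in 1 fit, a replicate block, an adjusted p below 0.01 and each library left out in turn. Coding length was chosen after seeing the data, in place of a planned RefSeq protein length that was not used here. Counts include PCR duplicates, so 3 counts as a limit cover counting error only. Ratios were tested with scipy 1.17.1 in Python 3.11.15, and figures were drawn with matplotlib 3.10.9.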

Additional observations from a re-analysis of the deposited data

How the results depend on the processing

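Of 319 alternative values over 37 results, 290 kept their direction and their side of the threshold or moved by less than the spread. Cybb passed in all 12 alternatives to the brain versus stroke blood fit, from -1.39 to -1.15 (adjusted p from 4.47e-13 to 0.00384), and in all 12 against sham blood, from -1.06 to -0.85 (adjusted p from 1.87e-06 to 0.027). Rac2 in the brain versus stroke blood passed with all 9 libraries in 1 fit (-0.45) and, of the fits without a library (-0.52 to -0.34), only without stroke blood 2, so the count of members past the threshold was 2 with all 9 libraries and 1 to 2 without a library. Rac2 in the brain versus sham blood did not pass with library size only (-0.35, edgeR adjusted p = 0.069), with the replicate block (-0.47, edgeR adjusted p = 0.0688) or without any of the libraries (-0.53 to -0.45), and 1 member was then past the threshold. Cybb became a DEG against sham blood without sham blood 2 or brain 1, which gave 0 to 1 member as a DEG over the libraries left out. The sign turned for Ncf4 between the blood groups without stroke blood 2 (0.0091, range without a library -0.097 to 0.0091) and for Ncf1 in the brain versus sham blood with library size only (0.053) and without brain 1 (0.0095, range -0.16 to 0.0095). None of these was past the threshold. The causes were not tested. With coding length the Cybb to Rac2 level was 0.757, 1.00 and 0.537 in sham blood, stroke blood and the brain. By Spearman's rank correlation, 4 of the 15 most similar genes were kept.

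The replicate block used the library numbers, which are not known to pair animals. With it Cybb stayed lower in the brain than in stroke blood (-1.31, edgeR adjusted p = 0.000816) and in sham blood (-0.98, edgeR adjusted p = 0.0103), Rac2 had an adjusted p of 0.109 against stroke blood, and 3560, 1 and 2096 genes were called in the 3 comparisons in place of 4035, 1 and 2572. DESeq2 called 4672, 191 and 3400 genes. Members that did not pass are not shown to be equal between groups. Each member had at least 4465 counts in every library. Ratios within libraries cannot reach an exact p below 0.1.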
